A study of Mus musculus with 60 samples.

Results

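The cadherins and non-clustered protocadherins of the mouse brain were described here as 35 of the 21950 protein-coding genes in the count table. A member was any gene whose symbol is Cdh or Pcdh followed by a number and at most 1 letter, so that the clustered protocadherins (Pcdha, Pcdhb and Pcdhg) were left out. By protein type, 5 members are type I classical cadherins, 13 are type II classical cadherins, 5 are atypical or other cadherins, 4 are delta1-protocadherins, 5 are delta2-protocadherins and 3 are other protocadherins. The rule uses the symbol and no measured value, but it was chosen with earlier results of these data known.

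Cadherins are membrane proteins that bind, in the presence of calcium, to cadherins on the neighbouring cell. Inside the cell the classical types hold on to the actin skeleton through catenins, while the delta2-protocadherins bind the WAVE complex, which drives actin branching. In the brain, different sets of cadherins mark regions, nuclei and cell layers, and several act at synapses, where the adhesion receptor Adgrl3 (latrophilin-3) also binds its FLRT and teneurin partners across the cleft.

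RNA was sequenced from striatum, hippocampus and prefrontal cortex of mice that lack Adgrl3 (KO; genotype Adgrl3 -/-, called Lphn3 -/- in the protocol) and of wild-type mice (WT; Adgrl3 +/+), with 10 libraries per genotype and region and 60 in all. The protocol counts 12 KO and 12 WT mice, all aged 65 to 76 days, with no treatment named; brains were frozen and the regions dissected from them. No source used here gives the strain, the sex, the altered part of Adgrl3 or which mouse gave which library, so the p-values measure the spread between these libraries, which may be partly technical.

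Libraries held 38985577 to 51387833 counted reads. Levels are CPM, that is counts scaled to library size, after TMM scaling (a correction for library composition) over the 60 libraries. Adgrl3 had 32.5 to 46.9 CPM in KO striatum against 144 to 176 CPM in WT striatum, 30.7 to 39.6 CPM in KO hippocampus against 117 to 131 CPM in WT hippocampus, and 16.5 to 44.1 CPM in KO prefrontal cortex against 126 to 172 CPM in WT prefrontal cortex, so genotypes did not overlap in any region. The Y-linked gene Ddx3y was present in all 60 libraries, at 51.3 to 74.3 CPM. The summed level of 8 striatal neuron markers was 3096 to 4904 CPM in the 20 striatal libraries and 86.4 to 426 CPM in the other 40 libraries. No gene of the region marker lists was at 0 throughout a group. In prefrontal cortex, KO replicate 10 stood apart: it was the lowest of its group for 21 of the 33 members tested. Genes of at least 100 kb, a class that holds many cadherins, took 19.7% of its counts, against 21.3% to 23.3% in the other 9 KO libraries of that region. KO replicate 10 also had the lowest such share of its group in hippocampus (21.91%) and striatum (21.55%). There it was the lowest for 10 and 9 members. KO striatal replicate 5 was the lowest for 9 too, but with a share of 22.8% (group median 22.71%). WT prefrontal replicate 6 went the same way, being the lowest of its group for 12 members, with 20.4% of its counts in such genes. WT striatal replicate 9 was also the lowest of its group for 12 members, but its share was 22.93% (group median 22.97%). The part of this in any member's value was not tested; with or without KO replicate 10 (all 3 regions), no member was called between KO and WT.

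Counts were taken over the whole gene, introns included, so levels of different genes were compared per kilobase. Per kilobase of exon, the highest WT levels in striatum were 29.8 CPM per kb for Pcdh9, 21.2 for Pcdh1 and 15.6 for Pcdh10. In hippocampus they were 38.7 CPM per kb for Pcdh1, 28.8 for Pcdh20 and 28.1 for Pcdh9. In prefrontal cortex they were 26.8 CPM per kb for Pcdh1, 22.8 for Pcdh9 and 18.6 for Pcdh10. Protocadherins thus led in each region, with Pcdh20 among the leading 3 in hippocampus alone. The order depends on the length used, above all for Pcdh9, whose introns are long: per kilobase of the whole gene it ranked 16 in striatum, 15 in hippocampus and 17 in prefrontal cortex (0.23, 0.217 and 0.177 CPM per kb). On that scale Pcdh1 (7.14), Pcdh8 (5.27) and Pcdh10 (4.33) led in striatum and, in the same order, in prefrontal cortex (9.01, 8.79 and 5.18 CPM per kb), while compact Pcdh20 (23.8), Pcdh8 (14.1) and Pcdh1 (13 CPM per kb) led in hippocampus. The lowest 2 members were Cdh16, a kidney cadherin with 22 reads in all and none in 40 of the 60 libraries, and Cdh17, a liver and intestine cadherin with 110 reads and none in 16 libraries. Neither passed the filter on low counts in any comparison, which left 33 members to test.

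**Figure D1:**
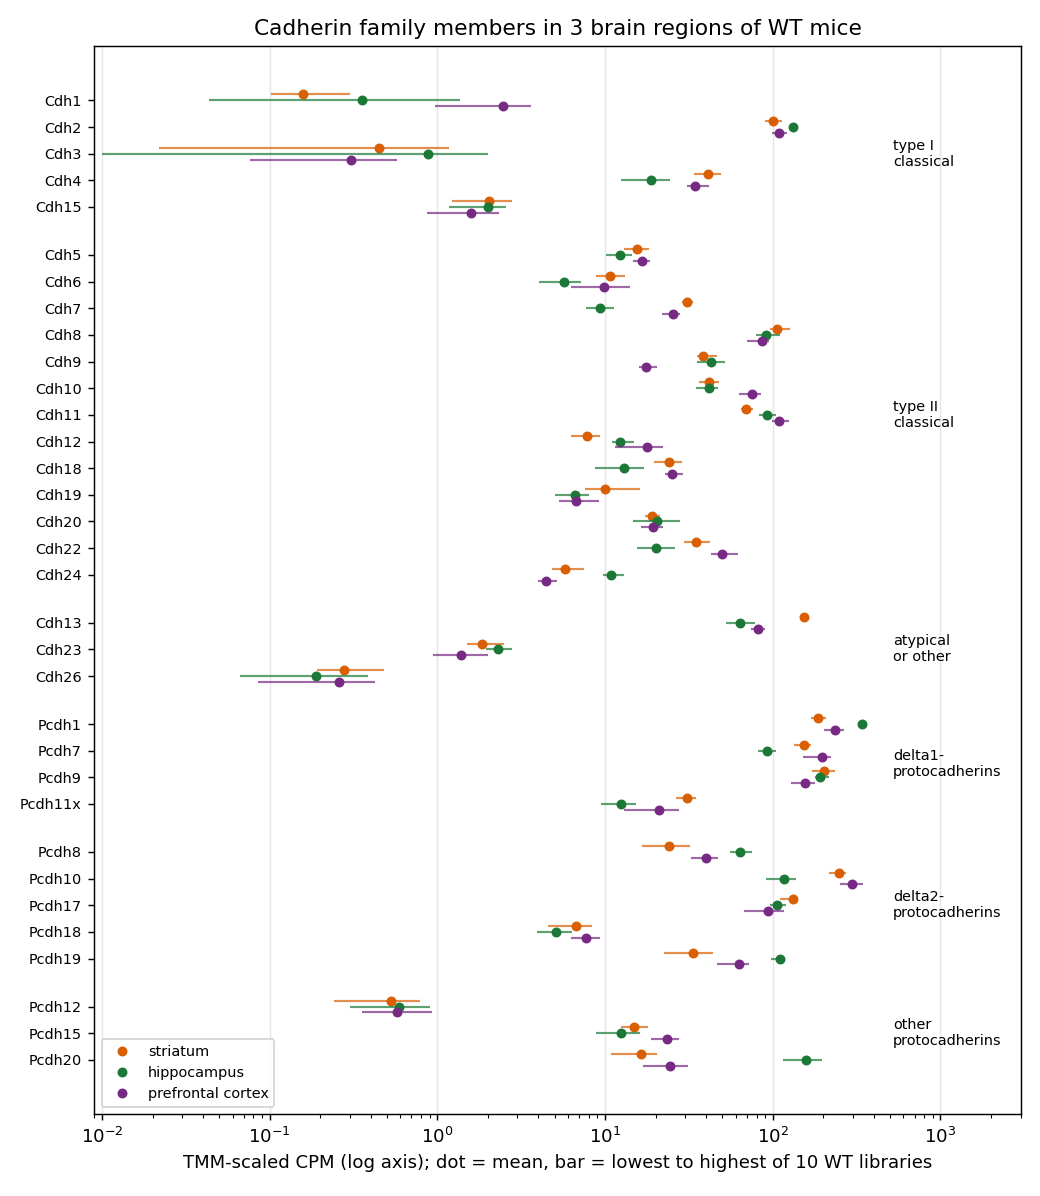
Level of each of the 33 tested members in WT striatum, hippocampus and prefrontal cortex, as TMM-scaled CPM on a log axis, by subfamily; dots are means and bars run from the lowest to the highest of 10 libraries. Pcdh20 stands far to the right in hippocampus, Cdh1 in prefrontal cortex and Cdh13 in striatum; the bar of Cdh3 in hippocampus is cut at the left edge because 2 of its libraries were at 0.

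Regions were compared within the 30 WT libraries with edgeR's quasi-likelihood test, and a member was called where the Benjamini-Hochberg adjusted p over all genes was at most 0.05 and the difference at least 2-fold. Between striatum and hippocampus 9 of 33 members were called (27.3%), 5 higher in striatum (Cdh7, Pcdh11x, Cdh13, Cdh4 and Pcdh10) and 4 lower (Pcdh20, Pcdh19, Pcdh8 and Cdh1), beside 10.2% of all 15826 genes tested (5.12% higher and 5.06% lower). Between striatum and prefrontal cortex 3 of 33 were called (9.09%), Cdh9 higher and Cdh1 and Cdh12 lower in striatum, beside 11.6% of all genes (7.07% higher and 4.54% lower). Between hippocampus and prefrontal cortex 9 of 33 were called (27.3%), 4 higher in hippocampus (Pcdh20, Cdh3, Cdh9 and Cdh24) and 5 lower (Cdh1, Cdh7, Pcdh10, Cdh22 and Pcdh7), beside 10.1% of all genes (5.98% higher and 4.16% lower). The median absolute log2 difference of the members was 0.65, 0.38 and 0.73 in these contrasts, beside 0.21, 0.26 and 0.22 over all genes. Cdh1 and Cdh26 were under the filter on low counts in at least 1 region's fit of KO against WT; over the other 31 members, chosen after the values were seen, 8 (25.8%), 2 (6.45%) and 8 (25.8%) were called. The share between striatum and prefrontal cortex lay near that of all genes and is no result about the members; the other 2 shares lay above it. In bulk tissue, fewer cells that express a gene and less RNA per cell cannot be told apart.

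By mean alone, whether or not the regions differed, the 33 members split evenly by the WT region of highest level: 11 in striatum, 11 in hippocampus and 11 in prefrontal cortex. The lowest mean lay in striatum for 11 members, in hippocampus for 14 and in prefrontal cortex for 8. Without the 2-fold minimum, 26, 25 and 27 of the 33 passed, beside 66.6%, 71.5% and 68.5% of all genes. The 10 libraries of each region did not overlap for 17 members between striatum and hippocampus, 12 between striatum and prefrontal cortex and 17 between hippocampus and prefrontal cortex, beside 27.5%, 33.2% and 28.0% of all genes.

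Among the delta2-protocadherins called between regions, Pcdh19 and Pcdh8 were highest and Pcdh10 was lowest in hippocampus. Pcdh20, placed here with the other protocadherins, was highest in hippocampus too. The 300 bases around the RefSeq start (250 before to 50 after, build GRCm38.p6) of these 4 genes are shown because 3 of them are highest and 1 lowest in hippocampus; each is written 5′ to 3′ on the gene's strand, and capitals mark the CCAAT box (CCAAT, or ATTGG where it lies on the other strand). Of the 35 members, 22 were matched by symbol; unmatched were Cdh1, Cdh2, Cdh3, Cdh4, Cdh5, Cdh11, Cdh13, Cdh16, Cdh17, Cdh19, Pcdh1, Pcdh11x and Pcdh12.
Pcdh20 (chr14:88471347-88471646, minus strand): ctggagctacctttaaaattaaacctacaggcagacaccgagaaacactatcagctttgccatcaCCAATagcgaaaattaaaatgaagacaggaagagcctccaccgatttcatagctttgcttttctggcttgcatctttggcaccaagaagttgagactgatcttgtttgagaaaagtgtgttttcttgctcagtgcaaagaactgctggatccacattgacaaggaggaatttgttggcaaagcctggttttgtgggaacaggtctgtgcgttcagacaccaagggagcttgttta
Pcdh19 (chrX:133688944-133689243, minus strand): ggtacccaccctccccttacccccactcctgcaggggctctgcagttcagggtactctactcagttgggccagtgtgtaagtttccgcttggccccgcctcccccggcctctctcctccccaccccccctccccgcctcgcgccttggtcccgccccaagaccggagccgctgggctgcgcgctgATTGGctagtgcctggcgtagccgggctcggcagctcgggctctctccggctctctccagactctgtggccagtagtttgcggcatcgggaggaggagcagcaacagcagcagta
Pcdh8 (chr14:79771263-79771562, minus strand): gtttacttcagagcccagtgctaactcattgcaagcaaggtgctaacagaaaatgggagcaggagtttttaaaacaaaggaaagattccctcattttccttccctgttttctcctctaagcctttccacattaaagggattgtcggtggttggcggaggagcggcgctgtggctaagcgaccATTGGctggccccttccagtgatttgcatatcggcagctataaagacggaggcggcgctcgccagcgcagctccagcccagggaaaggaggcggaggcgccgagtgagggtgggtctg
Pcdh10 (chr3:45378148-45378447, plus strand): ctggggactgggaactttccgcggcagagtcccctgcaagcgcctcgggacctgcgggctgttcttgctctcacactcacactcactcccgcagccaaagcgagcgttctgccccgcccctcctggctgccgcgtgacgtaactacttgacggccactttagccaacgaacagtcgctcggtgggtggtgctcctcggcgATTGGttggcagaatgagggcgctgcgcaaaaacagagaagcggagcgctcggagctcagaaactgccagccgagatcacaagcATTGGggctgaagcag
The CCAAT box was in 15 of the 22 members with a sequence and in 37.4% of all 32851 promoters of that length. The GC box (GGGCGG) was in 9 of the 22 and in 35.7% of all, the TATA box (TATAAA) in 2 and in 13.6%, and the core of the cAMP response element (TGACG) in 3 and in 20.8%, each on both strands. A member was counted if any of its promoters held the motif, and some members, such as Cdh7, have several. The shares of all are those of single promoters, so the 2 measures are not alike. Among the 4 sequences shown, the GC box was found in Pcdh19 and Pcdh10, TATAAA in Pcdh8, TGACG in Pcdh10 and the CCAAT box in all 4. GC content was 43.7% for Pcdh20, 54.3% for Pcdh8, 62.3% for Pcdh10 and 67.7% for Pcdh19.

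Pcdh20 (ENSMUSG00000050505.7, chromosome 14, 88464743 to 88471396, minus strand; GRCm38) had 10.9, 17 and 20.4 CPM in WT striatum, 115, 160.2 and 197 CPM in WT hippocampus and 16.9, 24.8 and 31.1 CPM in WT prefrontal cortex (lowest, median and highest of 10). Each hippocampal library lay above every library of the other regions. Pcdh20 differed by a log2 fold change of -3.28 ± 0.12 (SE) for striatum against hippocampus (edgeR adjusted p = 6.99e-21) and 2.70 ± 0.11 for hippocampus against prefrontal cortex (edgeR adjusted p = 6.27e-19), which is 9.68-fold and 6.48-fold. Between striatum and prefrontal cortex it was -0.58 ± 0.11, below the 2-fold minimum, and the libraries overlapped.

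Pcdh19 (ENSMUSG00000051323.16, chromosome X, 133582860 to 133688987, minus strand), whose human counterpart is a gene of early childhood epilepsy in females, had 22.3, 34.1 and 44.2 CPM in WT striatum, 97.7, 113 and 116 CPM in WT hippocampus and 46.3, 64.7 and 72.5 CPM in WT prefrontal cortex. The regions did not overlap: hippocampus was highest, prefrontal cortex next and striatum lowest. Striatum against hippocampus gave a log2 fold change of -1.72 ± 0.10 (edgeR adjusted p = 2.90e-15). Pcdh8 (ENSMUSG00000036422.10, chromosome 14, 79766775 to 79771312, minus strand), also called arcadlin, is induced by synaptic activity and draws N-cadherin into the cell. It had 16.5, 23 and 32 CPM in WT striatum, 55.4, 63.8 and 75.5 CPM in WT hippocampus and 32.5, 40.6 and 47.4 CPM in WT prefrontal cortex, in the same order and with no overlap between regions. Its log2 fold change of striatum against hippocampus was -1.42 ± 0.11 (edgeR adjusted p = 1.02e-12). Striatum against prefrontal cortex gave -0.91 ± 0.10 for Pcdh19 and -0.74 ± 0.11 for Pcdh8, both past the adjusted p but under 2-fold.

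Pcdh10 (ENSMUSG00000049100.15, chromosome 3, 45378398 to 45435623, plus strand), which in mice is needed for the growth of striatal axons, had 217, 244 and 274 CPM in WT striatum, 91.5, 114 and 138 CPM in WT hippocampus and 251, 297 and 344 CPM in WT prefrontal cortex. All hippocampal libraries lay below all libraries of the other regions. Pcdh10 differed by a log2 fold change of 1.08 ± 0.06 for striatum against hippocampus (edgeR adjusted p = 2.92e-16) and -1.34 ± 0.06 for hippocampus against prefrontal cortex (edgeR adjusted p = 2.05e-18). Pcdh17, which in mice helps to form synapses of cortical and basal ganglia circuits, and Pcdh18 were not called. Like Pcdh10, Pcdh18 was lowest in hippocampus, past the adjusted p against both other regions but under 2-fold. Pcdh17 averaged 132 ± 9.54 CPM in striatum, 107 ± 8.55 CPM in hippocampus and 93.9 ± 13.9 CPM in prefrontal cortex (SD, n = 10 each), and Pcdh18 averaged 6.69 ± 1.2, 5.12 ± 0.643 and 7.74 ± 0.974 CPM in the same order.

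**Figure D2:**
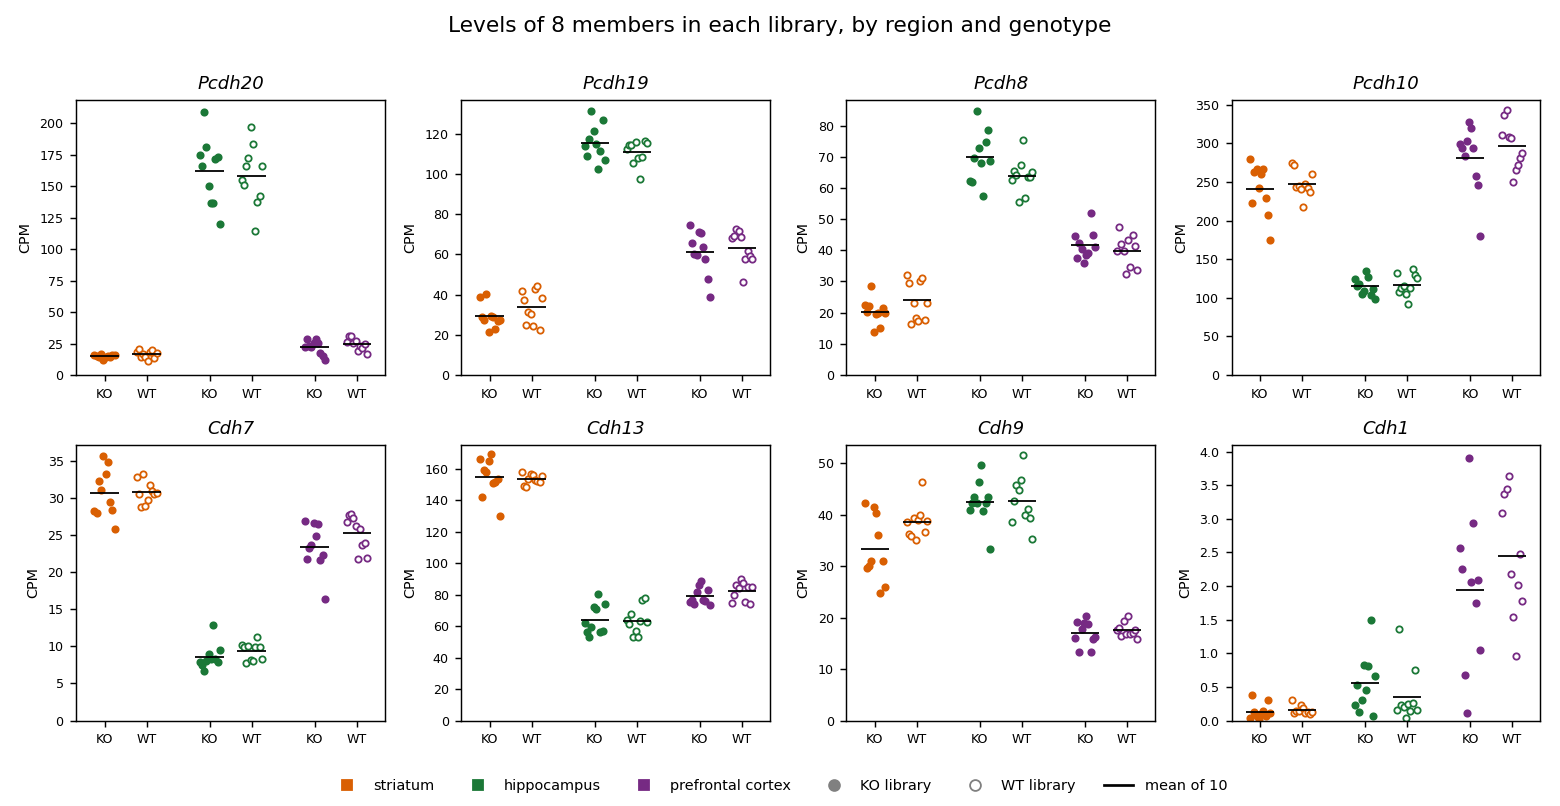
TMM-scaled CPM of 8 members in each of the 60 libraries, KO left of WT within each region; dots are libraries and lines are means of 10. In both genotypes hippocampus stands apart from the other regions for Pcdh20, Pcdh19, Pcdh8, Pcdh10 and Cdh7, and striatum for Cdh13, whereas KO and WT overlap in every region for each of the 8 members.

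The delta1-protocadherins are large adhesion proteins of neurons. Pcdh11x, an X-linked member, had 26.6, 30.9 and 35 CPM in WT striatum, 9.43, 12.9 and 15.3 CPM in WT hippocampus and 12.9, 21.2 and 27.7 CPM in WT prefrontal cortex. Striatal libraries lay above all hippocampal libraries, with prefrontal cortex overlapping both. Pcdh11x differed by a log2 fold change of 1.30 ± 0.10 for striatum against hippocampus (edgeR adjusted p = 2.03e-12). Pcdh7 had 134, 151 and 170.0 CPM in WT striatum, 82.1, 94.2 and 105 CPM in WT hippocampus and 151, 203 and 222 CPM in WT prefrontal cortex, with hippocampus below all libraries of the other regions. Its log2 fold change of hippocampus against prefrontal cortex was -1.09 ± 0.06 (edgeR adjusted p = 4.19e-17). Pcdh7 lies on chromosome 5 (57717967 to 58133230), the chromosome of Adgrl3, and its KO over WT log2 fold changes were -0.04 ± 0.06 in striatum, 0.05 ± 0.04 in hippocampus and 0.08 ± 0.09 in prefrontal cortex. Pcdh1 was not called but had no overlap between hippocampus and the other regions: 187 ± 14.2 CPM in striatum, 341 ± 11.7 CPM in hippocampus and 235 ± 17.9 CPM in prefrontal cortex (SD, n = 10 each). Pcdh9 averaged 202 ± 19.3, 191 ± 13.2 and 155 ± 19.3 CPM in the same order.

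Type II cadherins, 13 in all, bind one another in several combinations, and Cdh7, Cdh9, Cdh12, Cdh22 and Cdh24 were those called between regions. Cdh7 (ENSMUSG00000026312.17, chromosome 1, 109982431 to 110140157, plus strand) had 28.7, 30.6 and 33.2 CPM in WT striatum, 7.73, 9.87 and 11.3 CPM in WT hippocampus and 21.8, 26 and 27.8 CPM in WT prefrontal cortex. The 3 regions did not overlap. For Cdh7 the log2 fold change was 1.72 ± 0.06 for striatum against hippocampus (edgeR adjusted p = 3.21e-22) and -1.43 ± 0.06 for hippocampus against prefrontal cortex (edgeR adjusted p = 6.07e-20).

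Cdh9 (ENSMUSG00000025370.6, chromosome 15, 16778101 to 16857094, plus strand), which in mouse hippocampus is needed for mossy fibre synapses, had 35.1, 38.7 and 46.4 CPM in WT striatum, 35.3, 41.9 and 51.6 CPM in WT hippocampus and 15.9, 17.3 and 20.4 CPM in WT prefrontal cortex. Prefrontal cortex lay below all other libraries. For Cdh9 the log2 fold change was 1.13 ± 0.06 for striatum against prefrontal cortex (edgeR adjusted p = 5.50e-18) and 1.28 ± 0.06 for hippocampus against prefrontal cortex (edgeR adjusted p = 2.93e-19). Cdh24 had 4.82, 5.4 and 7.44 CPM in WT striatum, 9.7, 10.6 and 12.9 CPM in WT hippocampus and 3.97, 4.48 and 5.19 CPM in WT prefrontal cortex, with hippocampus above all other libraries. Its log2 fold change of hippocampus against prefrontal cortex was 1.28 ± 0.07 (edgeR adjusted p = 2.04e-16). Its other contrast with hippocampus, striatum against hippocampus, was -0.90 ± 0.07 and under 2-fold.

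Cdh22 and Cdh12 were highest in prefrontal cortex. Cdh22 had 29.5, 33.7 and 42.1 CPM in WT striatum, 15.4, 20.1 and 26.3 CPM in WT hippocampus and 43.1, 49.2 and 62.1 CPM in WT prefrontal cortex, with no overlap between regions and a log2 fold change of hippocampus against prefrontal cortex of -1.30 ± 0.09 (edgeR adjusted p = 1.27e-14). Cdh12 had 6.25, 7.8 and 9.33 CPM in WT striatum, 11, 11.6 and 14.8 CPM in WT hippocampus and 11.4, 18.4 and 22.1 CPM in WT prefrontal cortex. Striatum lay below all other libraries, while hippocampus and prefrontal cortex overlapped. Striatum against prefrontal cortex gave a log2 fold change of -1.18 ± 0.10 for Cdh12 (edgeR adjusted p = 1.41e-12). Past the adjusted p but short of 2-fold were Cdh18 and Cdh10, with log2 fold changes of -0.94 ± 0.08 and -0.84 ± 0.06 for hippocampus against prefrontal cortex, and Cdh6, with 0.91 ± 0.13 for striatum against hippocampus. Cdh18 averaged 24.2 ± 2.6 CPM in striatum, 13 ± 2.36 CPM in hippocampus and 24.9 ± 1.79 CPM in prefrontal cortex (SD, n = 10 each), Cdh10 averaged 41.6 ± 3.68, 41.8 ± 4.32 and 75.1 ± 8.17 CPM in that order, and Cdh6 averaged 10.7 ± 1.52, 5.7 ± 1.08 and 9.87 ± 2.52 CPM.

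The other type II members did not reach 2-fold. Cdh8 had means of 105 ± 8.28 CPM in striatum, 91.2 ± 8.75 CPM in hippocampus and 86.5 ± 7.46 CPM in prefrontal cortex (SD, n = 10 each). Cdh20 averaged 19 ± 1.57, 20.5 ± 4.19 and 19.4 ± 1.89 CPM in the same order and passed no contrast even without a minimum fold. Cdh11, first found in bone, averaged 69.1 ± 3.88, 92.5 ± 7.65 and 109 ± 8.69 CPM. Cdh5 (VE-cadherin), the junction cadherin of endothelium, averaged 15.5 ± 1.4, 12.3 ± 1.41 and 16.7 ± 1.46 CPM; the summed level of 9 other endothelial markers was 236 to 276 CPM in WT striatum, 199 to 232 CPM in WT hippocampus and 221 to 261 CPM in WT prefrontal cortex, and its part in the Cdh5 values was not tested. Cdh19, found in cells of the glial lineage, averaged 10.1 ± 2.75, 6.6 ± 1.11 and 6.74 ± 1.19 CPM, beside 5036 to 9862, 2386 to 4124 and 1130 to 1505 CPM for the sum of 6 oligodendrocyte markers, whose part was not tested either.

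Among the type I cadherins, Cdh2 (N-cadherin), the main cadherin of excitatory synapses, differed by less than 2-fold between regions, with means of 100.3 ± 7.42 CPM in striatum, 132 ± 3.54 CPM in hippocampus and 109.5 ± 7.49 CPM in prefrontal cortex (SD, n = 10 each). Cdh4 (R-cadherin) had 33.8, 40.3 and 49.2 CPM in WT striatum, 12.4, 18.8 and 24.4 CPM in WT hippocampus and 30.9, 33.5 and 41.6 CPM in WT prefrontal cortex, with hippocampus below all other libraries and a log2 fold change of striatum against hippocampus of 1.12 ± 0.11 (edgeR adjusted p = 1.15e-10). Cdh15 (M-cadherin of muscle), the one member that overlaps another gene on the same strand (Gm20388) and so may share its reads, averaged 2.04 ± 0.479, 2.0 ± 0.483 and 1.59 ± 0.48 CPM in striatum, hippocampus and prefrontal cortex.

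The epithelial cadherins Cdh1 (E-cadherin) and Cdh3 (P-cadherin) had few reads, and Cdh1 passed the filter on low counts through its prefrontal libraries. Cdh1 had 0.102, 0.137 and 0.301 CPM in WT striatum, 0.0436, 0.212 and 1.37 CPM in WT hippocampus and 0.963, 2.33 and 3.63 CPM in WT prefrontal cortex. Striatum did not overlap with prefrontal cortex, while hippocampus overlapped with both. Because prefrontal cortex admitted Cdh1 to the fit, its log2 fold changes of -3.92 ± 0.39 for striatum and -2.76 ± 0.35 for hippocampus against prefrontal cortex are given as a description. Striatum against hippocampus gave -1.16 ± 0.46 (edgeR adjusted p = 0.0264), but -0.56 (adjusted p = 0.347) in limma voom with quality weights, where it was not called. The sum of 4 olfactory bulb markers, tissue that lies beside the prefrontal cortex, was 8.02 to 13.4 CPM in WT striatum, 10.3 to 18.8 CPM in WT hippocampus and 5.45 to 98.3 CPM in WT prefrontal cortex. WT prefrontal replicate 4, with the highest Cdh1 of its group (3.63 CPM), had 9.02 CPM of these markers. WT prefrontal replicate 7 had the lowest Cdh1 (0.963 CPM) and the lowest sum (5.45 CPM). The sum of 9 mural and meningeal markers was 212 to 309 CPM in WT prefrontal cortex. It was 164 to 250 CPM in WT striatum and 185 to 332 CPM in WT hippocampus. In KO prefrontal cortex that sum and Cdh1 were highest in replicate 5 (302 and 3.9 CPM) and lowest in replicate 4 (182 and 0.116). In WT prefrontal cortex their extremes lay in different replicates. The part of these tissues in the Cdh1 difference was not tested.

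Cdh3 had 0.0219, 0.328 and 1.18 CPM in WT striatum, 0, 0.815 and 1.99 CPM in WT hippocampus and 0.0761, 0.321 and 0.576 CPM in WT prefrontal cortex. The regions overlapped, and the log2 fold change of hippocampus against prefrontal cortex was 1.52 ± 0.53 (edgeR adjusted p = 0.012). It was 1.08 with adjusted p = 0.197 in limma voom with quality weights. The sum of 10 choroid plexus markers was 37.7 to 1350.0 CPM in WT striatum, 57.4 to 2754 CPM in WT hippocampus and 6.35 to 23.3 CPM in WT prefrontal cortex. In hippocampus the 2 WT libraries with no Cdh3 read, replicates 6 and 7, had the lowest choroid sums of their group, 57.4 and 78.5 CPM. KO replicate 2 had the highest Cdh3 (2.46 CPM) and the highest choroid sum (3141 CPM) of the KO hippocampal libraries. The part of choroid plexus in the Cdh3 difference was not tested.

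Of the atypical cadherins, Cdh13 (T-cadherin; ENSMUSG00000031841.19, chromosome 8, 118283733 to 119324921, plus strand) is held in the membrane by a lipid anchor and has no cytoplasmic part, and in humans its gene, like that of Adgrl3, has been linked to attention deficit hyperactivity disorder. It had 148, 154 and 158 CPM in WT striatum, 52.9, 62.9 and 77.9 CPM in WT hippocampus and 73.8, 84.5 and 89.7 CPM in WT prefrontal cortex. The striatal libraries lay above all others. Striatum against hippocampus gave 1.27 ± 0.05 on the log2 scale (edgeR adjusted p = 6.75e-20), and striatum against prefrontal cortex gave 0.91 ± 0.05, past the adjusted p but under 2-fold. Cdh23 and Pcdh15 together form the tip link of hair cells in the inner ear. Cdh23 averaged 1.86 ± 0.32 CPM in striatum, 2.29 ± 0.266 CPM in hippocampus and 1.38 ± 0.31 CPM in prefrontal cortex (SD, n = 10 each), and Pcdh15 averaged 15 ± 1.73, 12.4 ± 2.01 and 23.4 ± 2.82 CPM in the same order. Cdh23 was thus lowest and Pcdh15 highest in prefrontal cortex. Cdh26, of epithelia, had 3 to 61 reads a library and passed no contrast.

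The region contrasts were repeated in the 30 KO libraries, which share no library with the WT fits. The KO fits called 9, 4 and 10 members in the 3 contrasts, beside 10.4%, 12.6% and 9.74% of all genes. All 9 members called between striatum and hippocampus in WT were called in KO in the same direction. So were all 9 between hippocampus and prefrontal cortex and 2 of 3 between striatum and prefrontal cortex. Each of these counts includes Cdh1, which its prefrontal libraries admitted to the fit. Over the 31 members without Cdh1 and Cdh26, WT calls were 8 between striatum and hippocampus and 8 between hippocampus and prefrontal cortex. All of these were called in KO. Of the 2 between striatum and prefrontal cortex, Cdh12 was called in KO and Cdh9 was not. Cdh9 missed the 2-fold minimum in KO, with 0.97 for striatum against prefrontal cortex in KO libraries and 1.13 in WT libraries. Pcdh8 (-1.03 in KO, -0.74 in WT), Pcdh19 (-1.06 in KO, -0.91 in WT) and, between hippocampus and prefrontal cortex, Cdh23 (1.04 in KO, 0.73 in WT) passed in KO alone, which does not show that the genotypes differ. Over all 33 members the sign was the same in 31, 32 and 33. The region of highest mean was the same for 32 of 33, with Cdh15 the exception, whose striatal and hippocampal means did not differ beyond their spread. The widest gap between the genotypes was that of Cdh1, -1.81 in KO and -2.76 in WT for hippocampus against prefrontal cortex.

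**Figure D3:**
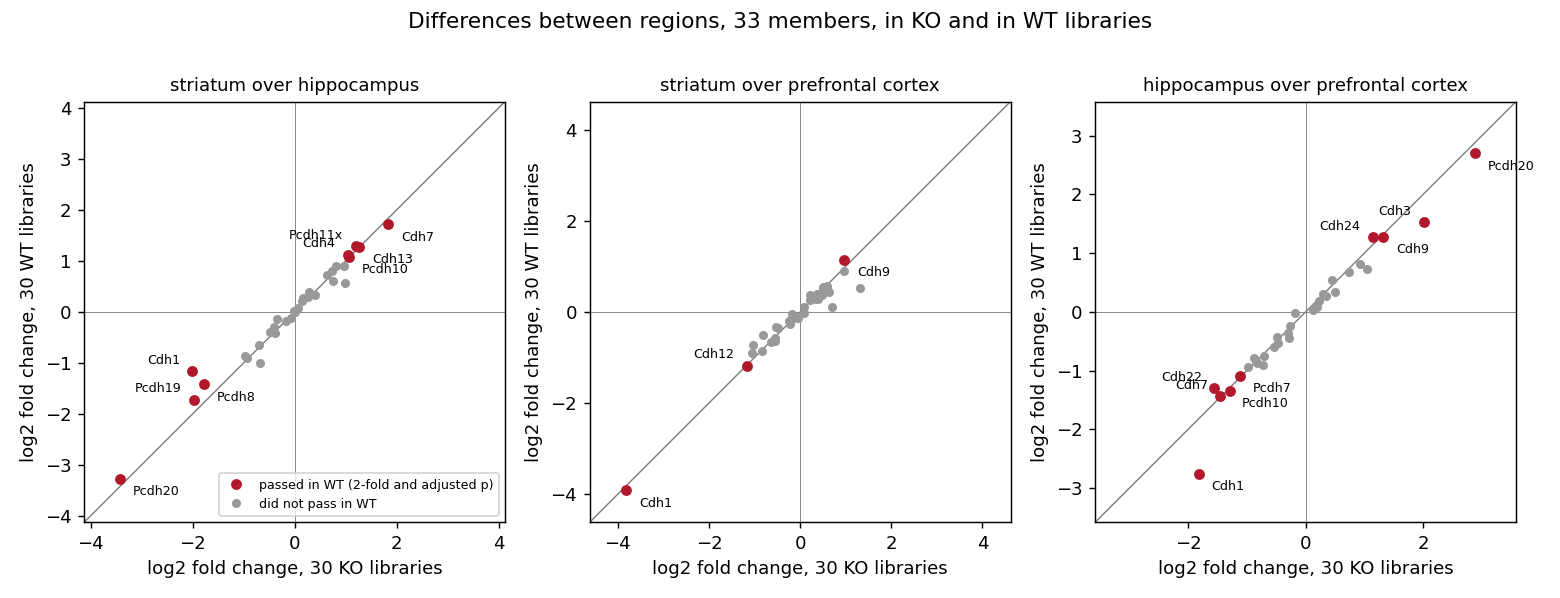
Log2 fold change between regions of the 33 tested members, in the 30 KO libraries (horizontal axis) and the 30 WT libraries (vertical axis); red members passed in WT, and the line marks equal values. Most members lie close to the line in all 3 contrasts, with Cdh1 the farthest from it between hippocampus and prefrontal cortex.

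KO and WT were then compared within each region on its 20 libraries. No member was called in striatum (0 of 32 tested, beside 0.0514% of 15553 genes), hippocampus (0 of 32, beside 0.128% of 15581 genes) or prefrontal cortex (0 of 32, beside 0.117% of 15376 genes) in edgeR's quasi-likelihood test at an adjusted p of 0.05. DESeq2 and limma voom also called 0 members in each region. At an unadjusted p under 0.05 there were 4 members in striatum, 3 in hippocampus and 6 in prefrontal cortex, that is 12.5%, 9.38% and 18.8%, beside 7.14%, 8.14% and 11.8% of all genes. In no region did the KO and WT ranges of any member lie apart, beside 0.0193%, 0.0321% and 0.026% of all genes in striatum, hippocampus and prefrontal cortex. Cdh26 was under the filter in hippocampus and prefrontal cortex, and Cdh1 in striatum.

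The intervals bound how large a difference could be. In striatum the 95% interval of the log2 fold change excluded a 1.5-fold difference in either direction for 28 of 32 members, the others being Cdh3, Cdh23, Cdh26 and Pcdh12. In hippocampus it did so for 29 of 32 (not Cdh1, Cdh3 and Pcdh12), and in prefrontal cortex for 27 of 32 (not Cdh1, Cdh3, Cdh15, Cdh23 and Pcdh12). The intervals are approximate, because each edgeR SE given here is the absolute log2 fold change divided by the square root of the test's F. A t quantile turned the SE into the interval. The intervals are not adjusted for the number of members. The narrowest was that of Cdh2 in hippocampus, 0.01 to 0.11. For 3 members with wide differences between regions, the KO over WT log2 fold change in hippocampus was 0.03 ± 0.10 for Pcdh20, 0.06 ± 0.04 for Pcdh19 and -0.03 ± 0.07 for Pcdh10.

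**Figure D4:**
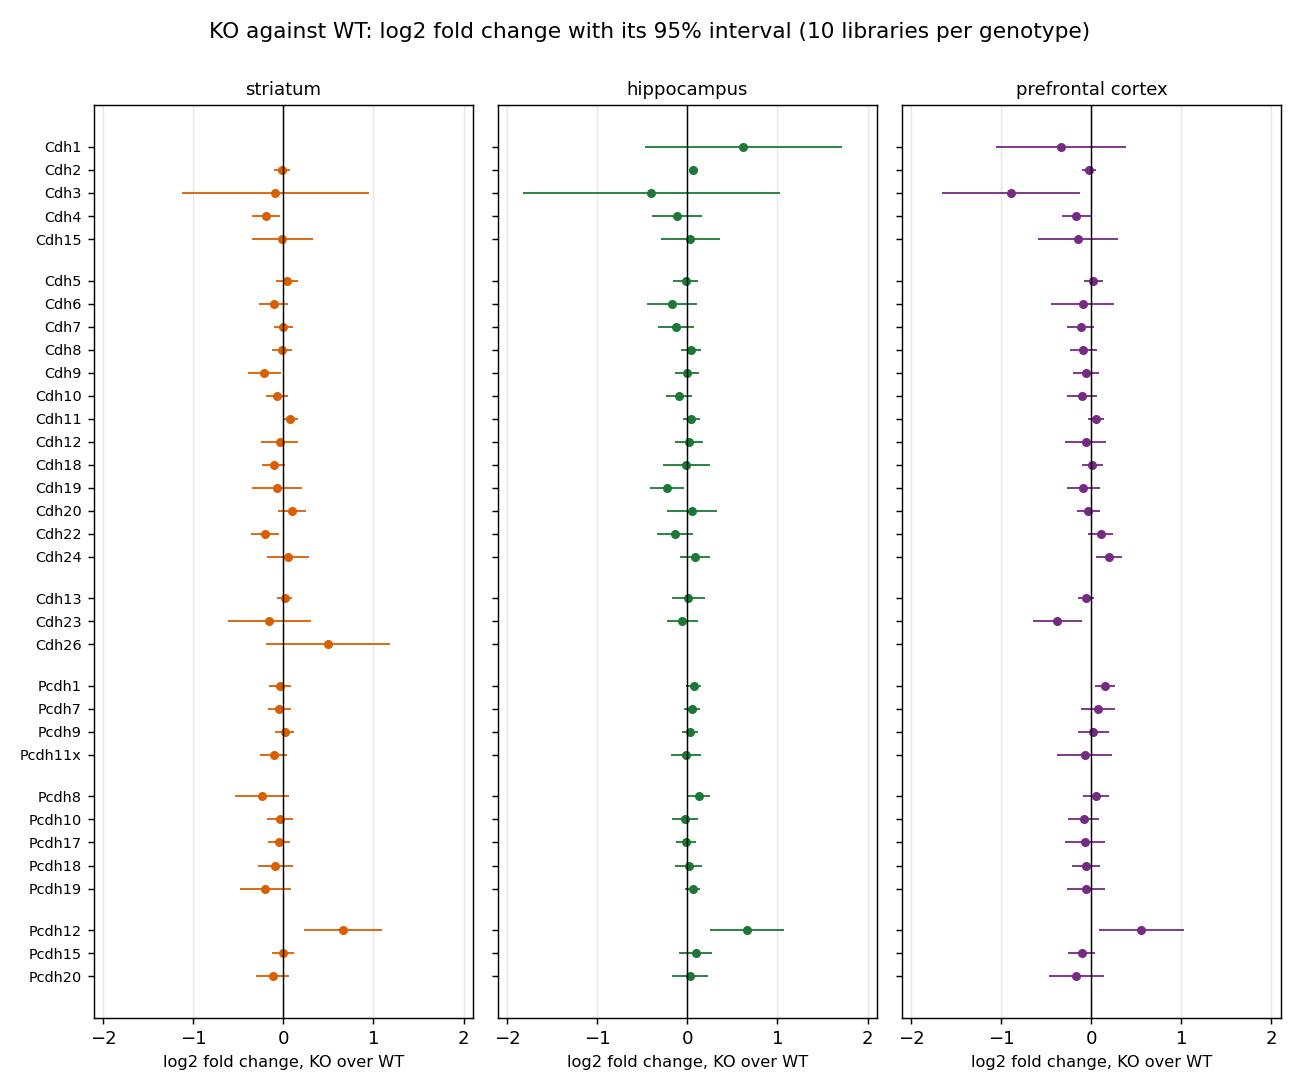
Log2 fold change of KO over WT with its 95% interval in striatum, hippocampus and prefrontal cortex for each tested member, from 10 KO and 10 WT libraries a region. Nearly all members lie close to 0; Pcdh12 lies to the right in each region, and Cdh1, Cdh3 and Cdh26, which have few reads, have wide intervals.

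In striatum the smallest p belonged to Pcdh12, Cdh22 and Cdh4. Cdh22 had 25.6, 30.2 and 36.2 CPM in KO striatum, against 29.5, 33.7 and 42.1 CPM in WT striatum, a log2 fold change of -0.20 ± 0.08 (95% interval -0.36 to -0.05; edgeR adjusted p = 0.635). Cdh4 had 29.8, 34.4 and 42.8 CPM in KO striatum, against 33.8, 40.3 and 49.2 CPM in WT striatum, a log2 fold change of -0.19 ± 0.07 (95% interval -0.35 to -0.04; edgeR adjusted p = 0.665). The ranges overlapped for both. In hippocampus they were Pcdh12, Cdh2 and Cdh19. Cdh2 had 129, 140.1 and 147 CPM in KO hippocampus, against 126, 132 and 139 CPM in WT hippocampus, a log2 fold change of 0.06 ± 0.02 (edgeR adjusted p = 0.503), and Cdh19 had 4.49, 5.7 and 7.09 CPM in KO hippocampus, against 5.0, 6.55 and 8.05 CPM in WT hippocampus, a log2 fold change of -0.23 ± 0.09 (edgeR adjusted p = 0.54). Their KO and WT ranges overlapped as well. The summed oligodendrocyte markers were 2041 to 5335 CPM (median 2420.0) in KO and 2386 to 4124 CPM (median 3084) in WT hippocampus, and their part in the Cdh19 value was not tested.

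In prefrontal cortex the smallest p belonged to Cdh23, Pcdh1 and Cdh24. Cdh23 had 0.728, 1.11 and 1.44 CPM in KO prefrontal cortex, against 0.943, 1.34 and 2.02 CPM in WT prefrontal cortex, a log2 fold change of -0.38 ± 0.13 (95% interval -0.65 to -0.10; edgeR adjusted p = 0.242). Once a score of 4 olfactory bulb genes entered the fit it was -0.07 (edgeR adjusted p = 1.0), the summed level of these genes being 4.32 to 50.8 CPM (median 6.92) in KO and 5.45 to 98.3 CPM (median 48.0) in WT prefrontal cortex. In the same fit Pcdh1 was 0.17 and Cdh24 was 0.20 (edgeR adjusted p = 0.953 for both), against 0.15 and 0.20 without the score. Because the median of the olfactory bulb genes differed between KO and WT, the score and the genotype cannot be fully told apart. The part of olfactory bulb tissue in these values was not tested. Pcdh1 had 231, 251 and 316 CPM in KO prefrontal cortex, against 202, 238 and 265 CPM in WT prefrontal cortex, a log2 fold change of 0.15 ± 0.05 (edgeR adjusted p = 0.258). Cdh24 had 4.23, 5.1 and 6.45 CPM in KO prefrontal cortex, against 3.97, 4.48 and 5.19 CPM in WT prefrontal cortex, a log2 fold change of 0.20 ± 0.07 (edgeR adjusted p = 0.259). The ranges of KO and WT overlapped for these 3 genes. The largest difference by size in any region, named after its values were seen, was that of Cdh3 in prefrontal cortex: 0, 0.179 and 0.277 CPM in KO, against 0.0761, 0.321 and 0.576 CPM in WT, with overlapping ranges. Its log2 fold change was -0.90 ± 0.37 (95% interval -1.66 to -0.13; edgeR p = 0.0237, adjusted p = 0.335). The sum of the choroid plexus markers was 5.4 to 61.4 CPM in KO and 6.35 to 23.3 CPM in WT prefrontal cortex, and its part in that value was not tested.

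Over all tested members the log2 fold change was positive for 8 of 32 in striatum, 18 of 32 in hippocampus and 10 of 32 in prefrontal cortex, with medians of -0.042, 0.015 and -0.063, beside 0.002, 0.001 and -0.004 over all genes. On counts summed over the 3 equally numbered libraries of a genotype (10 KO and 10 WT sums), 0 of 33 members were called, beside 0.162% of 16676 genes, and 2 had an unadjusted p under 0.05, beside 10.5% of all genes. The smallest p belonged to Pcdh12 (0.63 ± 0.19; edgeR adjusted p = 0.237), Cdh4 (-0.17 ± 0.06; edgeR adjusted p = 0.36) and Cdh23 (-0.16 ± 0.09; edgeR adjusted p = 0.541). The sums take equal numbers as 1 animal, which no label states. A difference of the KO effect between regions was called for 0 of 33 members, beside 0.0248% of 16121 genes; Cdh22, Pcdh8 and Pcdh1 had an unadjusted p under 0.05 (edgeR p = 0.0254, 0.0361 and 0.0424; adjusted p = 1.0 for each), and 3.96% of all genes did. Pcdh8, for example, had KO over WT log2 fold changes of -0.23 ± 0.14 in striatum, 0.13 ± 0.06 in hippocampus and 0.05 ± 0.07 in prefrontal cortex.

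Pcdh12 (ENSMUSG00000024440.12, chromosome 18, 38267092 to 38284402, minus strand), a protocadherin of endothelium, had the largest positive difference between the genotypes in each region and did not pass in any. It had 0.374, 0.901 and 1.15 CPM in KO striatum, against 0.24, 0.534 and 0.787 CPM in WT striatum, 0.513, 0.889 and 1.29 CPM in KO hippocampus, against 0.301, 0.52 and 0.908 CPM in WT hippocampus, and 0.39, 0.829 and 1.23 CPM in KO prefrontal cortex, against 0.355, 0.472 and 0.922 CPM in WT prefrontal cortex. The KO median lay above the WT median in each region, but the ranges overlapped throughout. Pcdh12 had a KO over WT log2 fold change of 0.66 ± 0.21 in striatum (edgeR p = 0.00448, adjusted p = 0.528), 0.66 ± 0.20 in hippocampus (edgeR p = 0.00289, adjusted p = 0.363) and 0.56 ± 0.23 in prefrontal cortex (edgeR p = 0.0226, adjusted p = 0.331). These values rest on 11 to 59 reads a library. Cdh5, an endothelial gene too, had KO over WT log2 fold changes of 0.04 ± 0.06, -0.02 ± 0.07 and 0.02 ± 0.05 in striatum, hippocampus and prefrontal cortex, and none of these passed. The sum of 9 endothelial markers was 241 to 284 CPM in KO and 236 to 276 CPM in WT striatum, 190.2 to 225 CPM in KO and 199 to 232 CPM in WT hippocampus, and 224 to 299.8 CPM in KO and 221 to 261 CPM in WT prefrontal cortex; its part in the Pcdh12 values was not tested.

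Over the 3 regions, equally numbered libraries lay close together in Pcdh12 for some numbers and apart for others. KO replicate 4 had 1.15 to 1.29 CPM and KO replicate 5 had 1.11 to 1.15 CPM over the regions, whereas KO replicates 1, 9 and 10 had 0.374 to 0.63, 0.405 to 0.77 and 0.513 to 0.836 CPM. Among WT libraries, replicates 3, 4 and 7 had 0.621 to 0.892, 0.787 to 0.922 and 0.72 to 0.913 CPM, WT replicate 2 had 0.24 to 0.516 CPM, and the 7 numbers other than 3, 4 and 7 had at most 0.666 CPM in any region. If equal numbers mark 1 animal, the 3 regional differences are not 3 separate observations. In a fit of the 60 libraries with region and genotype as terms, which treats them as independent, Pcdh12 had a log2 fold change of 0.63 with edgeR adjusted p = 0.00101; the sums above gave adjusted p = 0.237.

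**Figure D5:**
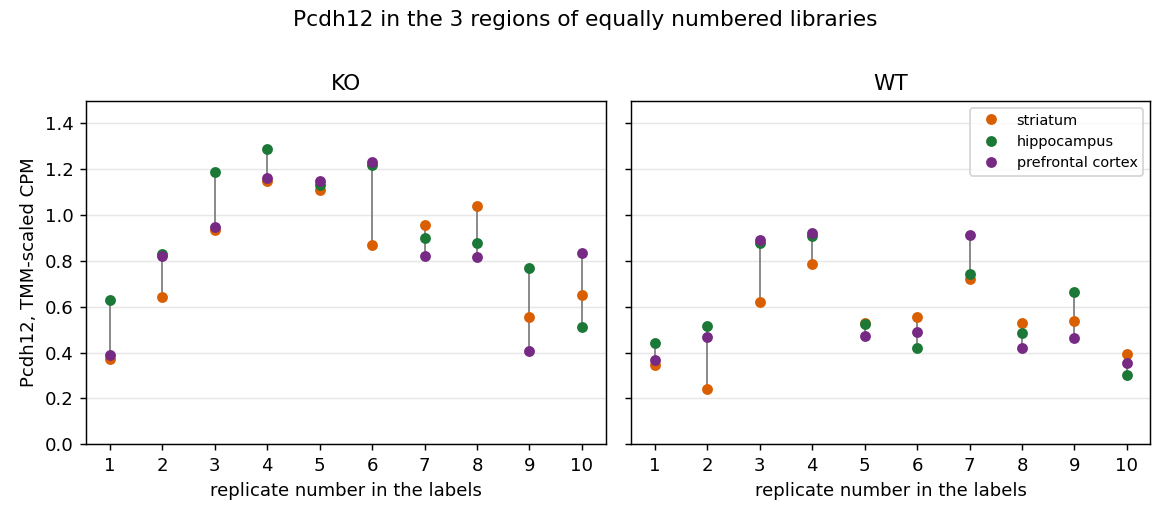
Pcdh12 in TMM-scaled CPM in striatum, hippocampus and prefrontal cortex for each replicate number, KO on the left and WT on the right; the grey line joins the lowest and highest of the 3 regions. Most KO numbers lie above most WT numbers, KO replicates 1, 2 and 9 lie below the KO median and WT replicates 3, 4 and 7 above the WT median in all 3 regions.

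Proteins that work with cadherins were counted from lists. Of 12 catenins and other genes of the cadherin complex, 9 WAVE complex genes and 6 genes of cadherin cleavage (Adam10 and gamma-secretase), all tested, 0 were called between KO and WT in any region, in the sums or in the test between regions. Of 21 other genes of the cadherin superfamily, 17 were tested in striatum, 19 in hippocampus and 18 in prefrontal cortex, and 0 were called. The smallest p of the catenin list in striatum and in hippocampus was that of Arvcf, a catenin related to delta-catenin (0.07 ± 0.03 and 0.13 ± 0.04 on the log2 scale; edgeR adjusted p = 0.695 and 0.389). Between regions in WT, 1 gene of the catenin list was called higher in striatum than in hippocampus (Jup, plakoglobin, 1.09 ± 0.05; edgeR adjusted p = 4.83e-18) and 1 higher in striatum than in prefrontal cortex (Ctnna3, 1.42 ± 0.12; edgeR adjusted p = 1.68e-12). No gene of the WAVE or cleavage lists was called between regions. Of all genes, 10.2% were called between striatum and hippocampus, 11.6% between striatum and prefrontal cortex and 10.1% between hippocampus and prefrontal cortex. With lists of 12, 9 and 6 genes, counts of 0 or 1 lie near these shares and are no result about the lists.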

How the data were processed

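The series table of raw read counts per gene for 60 libraries was deposited by the authors. The submitters' processing notes name the build GRCm38 and, with no role or order, STAR 2.5.2b, DESeq2 1.16.1, bedtools, cutadapt 1.16 and FastQC 0.11.4. Per the file headers, a feature is the whole gene, so intronic reads count; long genes gain reads from unspliced RNA. Among pairs of genes of which 1 lies inside the other (at least 6000 reads in the inner gene), 0 of 493 on the same strand and 82 of 222 on opposite strands had fewer reads in the outer gene, so counting was by strand. Replicate libraries came from 12 mice per genotype, per the labels' protocols.

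KO and WT were compared with edgeR 4.0.16 (R 4.3.3): quasi-likelihood F test, TMM scaling, filterByExpr, robust dispersions, Benjamini-Hochberg adjustment over all genes at 0.05. Fits used the 20 libraries of a region, sums of equally numbered libraries, 60 libraries for the interaction, and 30 WT libraries for region contrasts, with an added log2 minimum of 1. The scripts' fits were tested on simulated counts. Levels per kilobase used GENCODE gene models. Alternatives were DESeq2 1.42.0, limma 3.58.1 voom, other scaling, filters, samples, covariates and a replicate block; leaving out KO replicate 10 and using the 30 KO libraries were chosen after seeing the data. Values are given for all members called, the 3 of smallest p in each comparison of KO with WT, and those under the filter; others named as examples were chosen after their values were seen. The members and lists were chosen with earlier results of these data known.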

Additional observations from a re-analysis of the deposited data

Results flagged for a closer look

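Single libraries stood apart from the 9 others of their group for 13 of 198 combinations of member and group (a wide gap to the nearest library for the range of the group). Chance flags about 1 group in 20. Among KO hippocampal libraries, replicate 8 was high for Cdh1 (1.495 CPM, others 0.0660 to 0.825). KO hippocampal replicate 7 was high for Cdh7 (12.9 CPM, others 6.68 to 9.47) and low for Cdh15 (0.878 CPM, others 1.92 to 2.48), and replicate 6 was high for Pcdh7 (109.6 CPM, others 88.0 to 99.3). In KO prefrontal cortex, replicate 10 was low for Cdh7 (16.4 CPM, others 21.6 to 26.9) and replicate 5 was high for Pcdh15 (28.8 CPM, others 18.9 to 23.7). In KO striatum, replicate 9 was low for Cdh11 (59.95 CPM, others 70.5 to 79.2), replicate 2 was high for Cdh26 (1.35 CPM, others 0.195 to 0.442) and replicate 7 was high for Pcdh9 (235.6 CPM, others 186 to 211). Among WT libraries, striatal replicate 9 was high for Cdh8 (126 CPM, others 96.7 to 111) and striatal replicate 8 for Cdh9 (46.4 CPM, others 35.1 to 39.9). WT prefrontal replicate 10 was high for Cdh18 (29.2 CPM, others 22.9 to 26.1) and replicate 2 for Cdh22 (62.1 CPM, others 43.1 to 51.5). The wide interval of Cdh26 between KO and WT striatum (log2 fold change 0.50 ± 0.33) comes from a fit that includes the high library. No cause was tested.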

How the results depend on the processing

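The count of members called between KO and WT was 0 in each region and in the test between regions under every alternative run, and 0 in the sums except in the fit of 60 libraries with region and genotype (1 member, Pcdh12). Over all genes the calls ran from 3 to 25 in striatum, 5 to 47 in hippocampus, 6 to 214 in prefrontal cortex, 11 to 650 in the sums and 0 to 17 in the test between regions. Striatum against hippocampus gave 8 or 9 members, 26 with no minimum fold and 17 with a log2 minimum of 0.5 (23.3% of all genes). Striatum against prefrontal cortex gave 3 or 4, 25 with no minimum and 12 at 0.5 (26.9% of all genes). Hippocampus against prefrontal cortex gave 8 to 10, 27 with no minimum and 21 at 0.5 (23.3% of all genes). Of the values of single members, 4 lost their call: Cdh1 between striatum and hippocampus in limma voom and under the replicate block (-0.9997, under 2-fold), Cdh3 in voom, and Cdh9 between striatum and prefrontal cortex in KO libraries. The cause was not tested. Equal numbers in 2 regions of a genotype correlated at -0.19 to 0.44 (56 of 60 pairs over 0.1, 52 of 60 best with their own number, a hint from the data), so pairing by animal was not taken as given. For KO against WT within a region, the replicate block paired equal numbers of KO and WT, which are different mice. Such pairs correlated at -0.53 to 0.32, and 1 of 30 was best with its own number. That block is thus no check on pairing by animal. With it 0 members were called between KO and WT. Between regions, where the block joined equally numbered WT libraries, 8, 3 and 9 members were called. Depth limits Cdh1, Cdh3, Cdh26 and Pcdh12, whose values rest on few reads, and Cdh16 and Cdh17, which could not be tested.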

Other observations

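Other genes of the cadherin superfamily were called between regions in WT as well. Of 19 tested, 2 were called higher and 8 lower in striatum than in hippocampus (10.2% of all genes were called), 3 higher and 2 lower in striatum than in prefrontal cortex (11.6% of all genes), and 7 higher and 1 lower in hippocampus than in prefrontal cortex (10.1% of all genes). Fat4, a giant cadherin that binds Dchs proteins on the neighbouring cell, had a log2 fold change of -2.25 ± 0.09 for striatum against hippocampus and 1.63 ± 0.08 for hippocampus against prefrontal cortex (edgeR adjusted p = 7.03e-21 and 1.91e-17). Dchs2 was highest in striatum (3.65 ± 0.14 against prefrontal cortex, 1.07 ± 0.12 against hippocampus; edgeR adjusted p = 4.79e-21 and 9.95e-10). Clstn2 (calsyntenin-2), a postsynaptic member, was highest in hippocampus (-1.45 ± 0.05 for striatum against hippocampus, 1.08 ± 0.05 for hippocampus against prefrontal cortex; edgeR adjusted p = 1.77e-21 and 5.86e-18), and Fat3 was higher in striatum than in hippocampus (1.03 ± 0.07; edgeR adjusted p = 8.35e-15). WT libraries of the regions did not overlap for these contrasts. Cdhr1, a marker on the olfactory bulb list, was lower in striatum and in hippocampus than in prefrontal cortex, with overlapping libraries (-1.58 ± 0.30 and -1.25 ± 0.30). These genes are named as examples chosen after their values were seen.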
